A study of Mus musculus with 6 samples.

Results

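The 31 genes described here belong to the unfolded protein response of the endoplasmic reticulum (ER) and to the integrated stress response. They were chosen by name, through the mouse Ensembl identifiers of the count table, and all 31 were found among its 25006 genes. They were read in 4 arms: 14 ER chaperones and folding factors, 7 genes of the ATF4/CHOP arm, 6 genes of ER-associated degradation, and 4 genes that sense or first transmit ER stress. RNA was sequenced from the corneal epithelium of mice, the layered cell sheet on the front of the eye, in 3 libraries labelled wild type and 3 labelled EphA2 null. EphA2 is a cell-surface kinase with ephrin-A proteins as its ligands, and the series concerns its role in ciliogenesis and autophagy of this epithelium. The sources used here give no allele beyond the -/- notation and no strain, sex or age. Whether each library is a separate animal is not stated either, so a p-value measures the spread between these libraries, which may be technical.

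Proteins that enter the ER are folded there by chaperones, and when folding lags, 3 membrane sensors respond: IRE1 (encoded by Ern1) splices the mRNA of the transcription factor XBP1, PERK (Eif2ak3) phosphorylates the translation factor eIF2, and ATF6 is cut to release a transcription factor. XBP1 and ATF6 raise the genes of chaperones and of the degradation machinery. Phosphorylated eIF2 lowers general translation but lets the mRNA of ATF4 be translated, and ATF4 together with CHOP (Ddit3) raises genes of amino acid supply, redox balance and feedback. Other kinases that phosphorylate eIF2 answer amino acid shortage, viral RNA and haem shortage, so the ATF4/CHOP arm can move without the chaperones. Counts per gene measure RNA, and the splicing of Xbp1 and the phosphorylation of eIF2 were not analysed here.

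Total counts ran from 15308013 to 27586942 per library. Below, values are given in the order wild type 1, 2 and 3 and then null-labelled 1, 2 and 3, where null-labelled stands for the libraries labelled EphA2 null. They are in CPM, the usual depth-normalised count, with library sizes scaled by TMM factors (trimmed mean of M-values). Epha2 RNA was not lower in the libraries labelled null: it stood at 298, 253 and 562 CPM in wild type and at 284, 652 and 578 CPM in the null-labelled libraries (log2 fold change 0.44 ± 0.39, SE, n = 3 per group, adjusted p = 0.9996). Every direction between the genotypes below therefore rests on the labels. The sample titles carry a number and a letter (N, R or B), and the labels give the meaning of neither. Libraries that share a number differ in the letter. Wild type 1 and 2 share a lower number next to that of null-labelled 1, and null-labelled 2 and 3 share a higher number next to that of wild type 3. The first principal component, 61.2% of the variance of log2 CPM over the tested genes, separated the 3 libraries with the lower numbers from the 3 with the higher ones. Epha2 followed the number (log2 fold change 1.07 in the higher over the lower numbers, adjusted p = 0.00174), so the members are compared both ways. A genotype model that also holds the range of the title number is called range-adjusted below.

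The corneal label held in every library: the 6 corneal epithelial markers Krt12, Krt5, Krt14, Pax6, Aldh3a1 and Tkt summed to between 57342 and 81360 CPM. Their sum differed between the title numbers, at 57342 to 65046 CPM in the lower and 74258 to 81360 CPM in the higher numbers. Of the 6, 5 had a log2 fold change above 0 in the higher numbers and 2 were called higher, against 24.6% of all tested genes. Markers of other cells also differed between the title numbers. The 11 leukocyte markers summed to 41.1 to 49.1 CPM in the lower and 24.6 to 31.4 CPM in the higher numbers (29.8 to 49.1 in wild type and 24.6 to 44.6 in null-labelled libraries). All 6 tested ones were lower in the higher numbers, 5 of them called at an adjusted p under 0.05, against 20.1% of all tested genes called lower. The 5 goblet cell markers summed to 24.4 to 87.6 CPM in the lower and 6.21 to 16.3 CPM in the higher numbers (6.21 to 65.2 in wild type and 9.85 to 87.6 in null-labelled libraries). All 3 tested ones were lower in the higher numbers, 2 of them called. Of the 7 stromal markers, whose sum reached at most 1.69 CPM, 0 passed the filter on low counts, and Kera and Lum were at 0 in all libraries. Of the 3 plasma cell markers in the count table, Jchain had at most 4 and Mzb1 at most 1 count in a library. Sdc1, the only 1 of them that was tested, was abundant in every library, from 1574 CPM in null-labelled 1 to 1990 CPM in null-labelled 2. None of the 4 conjunctival keratins was called between the title numbers, but all 4 were lower in the higher numbers (log2 fold change -0.86 to -0.43). They summed to 4614 to 5912 CPM in the lower numbers. In the higher numbers the sum was 3491 CPM in wild type 3, 5710 CPM in null-labelled 2 and 3115 CPM in null-labelled 3. The part of these cells in the differences below was not tested. In bulk tissue, fewer cells of a type and less RNA per cell cannot be told apart.

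The members covered a wide range of levels. Per kilobase of exon, the scale on which genes can be compared, Hspa5 was highest with a mean level of 223 CPM per kilobase (180 to 336 over the 6 libraries), followed by Atf4 with 207 (160 to 279) and Calr with 171 (152 to 200). The ranges of these 3 genes overlapped. Hsp90b1 stood apart below them at 117 (100.1 to 132), and Pdia4 and Canx followed at 78.4 and 76.4 CPM per kilobase, with overlapping ranges. Ppp1r15a, Pdia6, Chac1, Dnajc3 and Xbp1 lay between 50.5 and 36.4, neighbours in this order overlapping throughout. Derl1 at 28.8 overlapped neither Xbp1 above it nor Manf below it. From Manf at 21.7 down to Ern1 at 3.62 each gene overlapped the next. The sensors Eif2ak3 and Ern1 were thus near the lower end, at 4.59 and 3.62, with Atf6 at 9.80. Asns, which encodes asparagine synthetase, was lower at 1.64 (0.962 to 2.26), below the range of Ern1 but overlapping that of Sesn2 (1.91 to 5.38). Trib3, which encodes a pseudokinase induced by ATF4 and CHOP, was lowest, with 2, 3 and 1 counts in wild type and 1, 8 and 6 counts in the null-labelled libraries. It did not pass the filter on low counts, so 30 of the 31 members were tested.

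**Figure D1:**
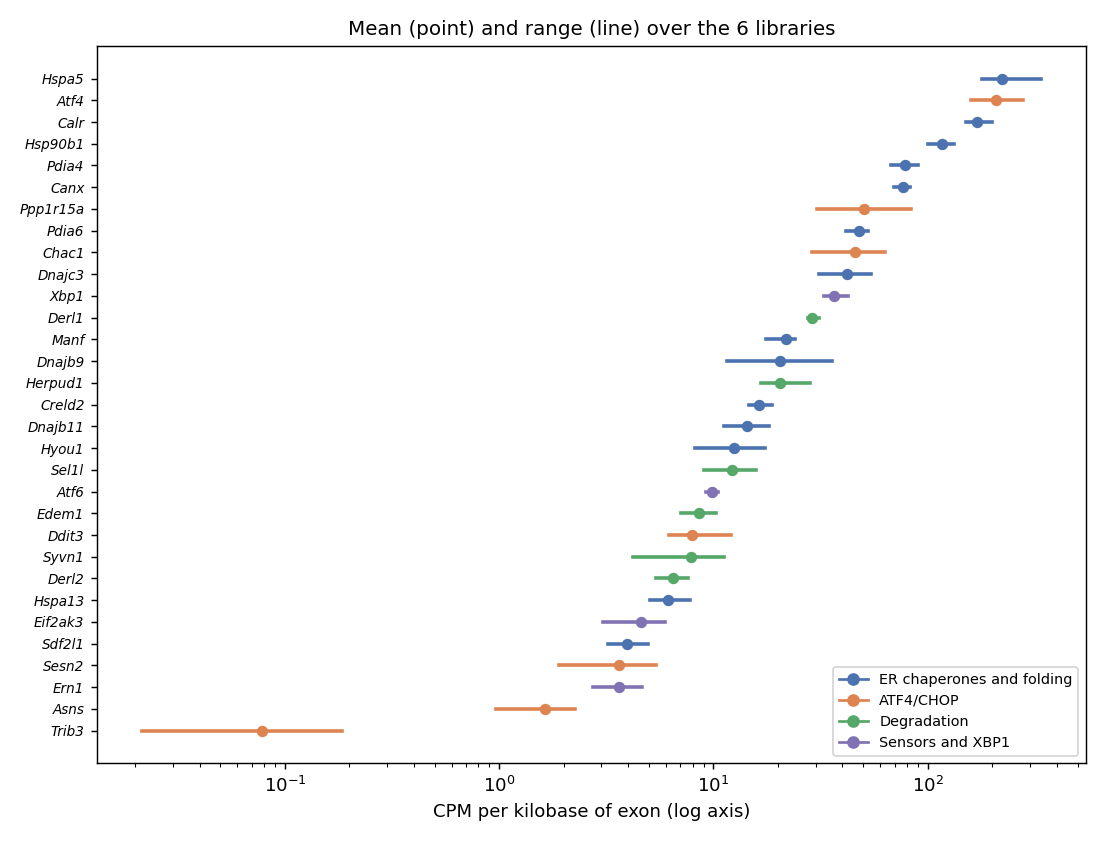
Level of each of the 31 members in CPM per kilobase of exon (log axis), ordered by mean, with the arm in colour. Points are means and lines run from the lowest to the highest of the 6 libraries, from Hspa5 at 223 down to Trib3, which had 21 counts in all.

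The chaperone and ATF4/CHOP arms are known for different promoter elements. The members were chosen by name, but the elements were chosen from textbook knowledge of these same pathways. The counts below therefore describe the windows and are not independent support for the arms. The ER stress response element (ERSE) joins a CCAAT box, bound by NF-Y, to CCACG, bound by ATF6 or XBP1. RefSeq promoter windows (250 bases before to 50 after a start, GRCm38.p6) were found for 26 of the 31 members, and ERSE, searched on both strands as CCAAT, 9 bases of any kind and CCACG, was in those of 8 of the 26. Over all windows of the table, members included, it was in 39 of 32851, or 0.119%. Of the 8 members, 7 were among the 11 matched chaperones and 1 among the 5 matched degradation genes, against 0 of 7 ATF4/CHOP genes and 0 of 3 sensors. The matches are shown 5′ to 3′ on the strand that reads CCAAT first, with the fixed letters in capitals, since the element was in 7 of the 11 matched chaperones. The rest of the 14 chaperones had no window and were not searched. The distance runs from the match to the RefSeq start.
Hspa5: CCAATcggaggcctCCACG at chr2:34772025-34772043, 47 bases before the start, on the strand of the gene.
Hsp90b1, first match: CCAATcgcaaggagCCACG at chr10:86705638-86705656, 194 bases before the start, on the strand of the gene.
Hsp90b1, second match: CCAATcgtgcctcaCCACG at chr10:86705533-86705551, 89 bases before the start, on the opposite strand.
Calr: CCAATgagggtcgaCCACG at chr8:84847075-84847093, 144 bases before the start, on the opposite strand.
Canx: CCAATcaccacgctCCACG at chr11:50325800-50325818, 127 bases before the start, on the strand of the gene.
Pdia6: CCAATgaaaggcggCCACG at chr12:17266491-17266509, 80 bases before the start, on the strand of the gene.
Dnajc3: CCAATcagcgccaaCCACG at chr14:118937827-118937845, 87 bases before the start, on the strand of the gene.
Creld2: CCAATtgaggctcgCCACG at chr15:88819520-88819538, 108 bases before the start, on the opposite strand.
Syvn1: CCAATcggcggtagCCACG at chr19:6046532-6046550, 26 bases before the start, on the strand of the gene.

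The related element ERSE-II, searched on both strands as ATTGG, 1 base of any kind and CCACG, was in the windows of Herpud1 and, past the start, Dnajb11, and in 0.0365% of all windows. The C/EBP-ATF response element, to which ATF4 binds with C/EBP partners, was searched by its core TGATGCAA and found in Chac1 and Herpud1, against 0.895% of all windows. Its longer form TGATGCAAT, which contains the shorter one, was in no member's window and in 0.192% of all windows. The XBP1 and ATF6 core TGACGTGG, which can overlap the last letters of ERSE on the opposite strand, was also in no member's window (0.676% of all windows). No match says only that these letters are not in the window. Herpud1 is shown because it held an element of each arm, from 150 to 1 bases before its start at chr8:94386279-94386428 on the plus strand. Chac1 is shown as the only ATF4/CHOP gene with a match, from 250 to 51 bases before its start at chr2:119350992-119351191 on the plus strand. Capitals mark TTGCATCA, the opposite-strand reading of the TGATGCAA core, in both genes, and the fixed letters of ERSE-II in Herpud1.
Herpud1: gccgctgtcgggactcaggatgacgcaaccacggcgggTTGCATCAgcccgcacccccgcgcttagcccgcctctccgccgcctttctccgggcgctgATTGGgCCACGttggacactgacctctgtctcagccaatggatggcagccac
Chac1: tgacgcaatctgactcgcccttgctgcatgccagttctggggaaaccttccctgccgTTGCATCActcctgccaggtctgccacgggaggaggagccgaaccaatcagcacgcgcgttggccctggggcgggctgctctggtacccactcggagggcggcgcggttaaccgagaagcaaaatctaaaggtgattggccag

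Between the genotypes, 0 of the 30 tested members were called in either direction at an adjusted p under 0.05, by edgeR, DESeq2 or limma voom. Among all tested genes edgeR and limma voom each called 0.00778% higher and 0% lower, and DESeq2 0.0218% and 0.00544%. At an unadjusted p under 0.05 the count of members was also 0 with each tool. The shares of all genes were then 0.467% higher and 0.716% lower in edgeR, 0.381% and 0.511% in DESeq2, and 0.428% and 0.716% in limma voom. In no member did the groups separate, against 1.71% of all tested genes with every null-labelled library higher and 2.02% with every one lower. The median log2 fold change of the members, null-labelled over wild type, was 0.15, with 24 above 0 and 6 below, beside a median of 0.01 over all tested genes, of which 53.1% were above 0. By arm the median was 0.07 for the chaperones, 0.25 for the 6 tested ATF4/CHOP genes, 0.15 for degradation and 0.14 for the sensors. Leaving out 1 library, these ranged from -0.05 (without wild type 3) to 0.13 for the chaperones, from 0.098 (without null-labelled 2) to 0.28 for ATF4/CHOP, from 0.059 (without null-labelled 2) to 0.26 for degradation and from 0.073 (without null-labelled 3) to 0.28 for the sensors. The SE of a member's log2 fold change ran from 0.12 to 0.46. In the range-adjusted model the median of the members was 0.05, with 21 above 0 beside 49.8% of all tested genes. The arm medians were then 0.09 for the chaperones, 0.12 for ATF4/CHOP, 0.02 for degradation and 0.01 for the sensors. Again 0 members were called, against 0.00778% of all genes higher in edgeR and limma voom and 0.0386% higher and 0.0708% lower in DESeq2. In that model 3 members had an unadjusted p under 0.05 in edgeR, all higher (Chac1, Ddit3 and Dnajc3), against 1.67% of all tested genes higher and 2.2% lower.

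Between the title numbers, 16 of the 30 tested members were called in edgeR with genotype as a term, 10 higher and 6 lower in the higher numbers. The count is to be read against all tested genes, of which 24.6% were called higher and 20.1% lower, so calls were common in any set of genes. DESeq2 called 10 members higher and 5 lower (23.3% and 18.5% of its genes), and limma voom 10 and 6 (24.3% and 20%). The 10 higher were Hyou1, Dnajb9, Dnajb11, Ppp1r15a, Sesn2, Sel1l, Edem1, Syvn1, Ern1 and Eif2ak3, and the 6 lower were Pdia4, Dnajc3, Hspa13, Ddit3, Chac1 and Derl2. Genes of 1 arm moved in both directions: 3 chaperones were higher and 3 lower, 2 ATF4/CHOP genes were higher and 2 lower, 3 degradation genes were higher and 1 lower, and 2 sensors were higher and 0 lower. The groups did not overlap in 17 members, 12 higher and 5 lower, against 30.2% and 28.8% of all tested genes. The median log2 fold change of the members was 0.13, beside -0.01 over all tested genes. Upper quartile factors moved the median of all tested genes by more than 0.1, to -0.13, and that of the members to 0.0071, with 10 members called higher and 9 lower. Without wild type 2 the number of called members fell to 9, and without null-labelled 1 to 5 (Hyou1, Ppp1r15a, Sesn2 and Syvn1 higher, Chac1 lower). Dnajb9, Dnajb11, Pdia4, Hspa13, Ddit3, Edem1 and Derl2 were those lost without wild type 2, and Dnajb9, Hspa13 and Pdia4 were also lost without wild type 3. The immediate early genes moved with the title number: the 10 listed summed to 4312 to 5466 CPM in the lower and 6662 to 8582 CPM in the higher numbers, with 7 called higher. Between the genotypes the direction of their median depended on the model. It was 0.10 with genotype alone, with 6 of 10 above 0, and -0.26 in the range-adjusted model, with 3 above 0. In the range-adjusted model 5 of 10 were lower at an unadjusted p under 0.05, against 2.2% of all tested genes. None of these was called in edgeR. Range-adjusted DESeq2 called Fos (-0.62, adjusted p = 0.0268) and Junb (-0.45, adjusted p = 0.00200) lower, against 0.0708% of all its genes. Their part in the members' differences was not tested.

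**Figure D2:**
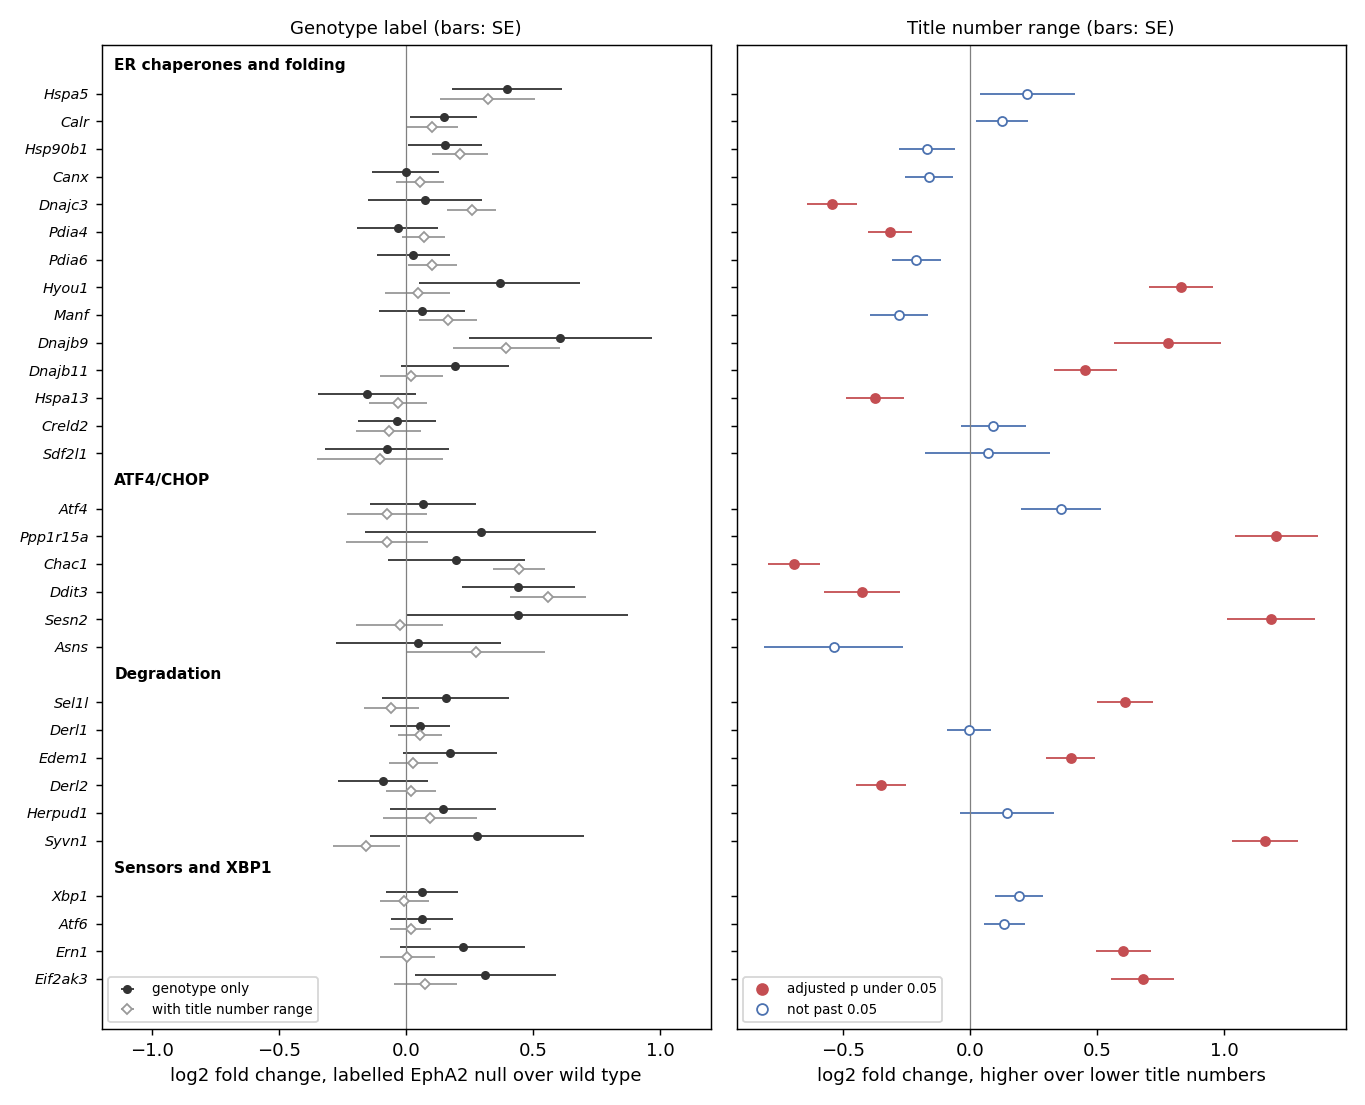
Log2 fold change (points) and SE (bars) of the 30 tested members, by arm. Left, null-labelled over wild type with genotype alone (filled) and range-adjusted (open), where no member passed an adjusted p of 0.05. Right, higher over lower title numbers, where 16 members passed (red), from Chac1 at -0.69 to Ppp1r15a at 1.21.

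Among the chaperones, none was called between the genotypes, and 9 of the 14 had a log2 fold change above 0. Hspa5 (ENSMUSG00000026864, chromosome 2, 34771970 to 34777547 in GRCm38) encodes BiP, the Hsp70 chaperone of the ER that also holds the sensors inactive. It stood at 776, 761 and 904 CPM in wild type and 966, 1422 and 824 CPM in the null-labelled libraries. Null-labelled 2 stood far above the other 5, and the groups overlapped because null-labelled 3 was below wild type 3. The log2 fold change was 0.40 ± 0.22 (SE, n = 3 per group; adjusted p = 0.9996), and without null-labelled 2 it was 0.14. By title number it was 0.22 ± 0.19 (adjusted p = 0.353), called only when null-labelled 3 was left out (0.37). Dnajb9, which encodes the BiP co-chaperone ERdj4, was at 32.9, 29.6 and 61.9 CPM and then 47.4, 91.4 and 50.5 CPM. Null-labelled 2 was again highest and wild type 3 second. With genotype alone Dnajb9 had the largest log2 fold change among the members, 0.61 ± 0.36 (adjusted p = 0.9996). It ran from 0.24 without null-labelled 2 to 0.999 without wild type 3, and in the range-adjusted model it was 0.39, below Ddit3 (0.56) and Chac1 (0.44). It was also called between the title numbers, with 0.78 ± 0.21 in the higher over the lower numbers (adjusted p = 0.0183).

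Hyou1, a large Hsp70-related protein that exchanges nucleotide on BiP, separated the title numbers more clearly. It stood at 72.8, 60.7 and 102 CPM in wild type and 59.1, 126 and 118 CPM in the null-labelled libraries. All 3 libraries with higher numbers were above the other 3, with a mean of 115.6 ± 12.4 against 64.2 ± 7.51 CPM (SD, n = 3 each) and a 1.78-fold difference (adjusted p = 0.00257). Between the genotypes its log2 fold change was 0.37 ± 0.32 with genotype alone and 0.05 ± 0.13 in the range-adjusted model. Dnajb11, the co-chaperone ERdj3, was likewise higher in all higher-number libraries, at 44.0, 37.4 and 48.9 CPM and 36.3, 53.7 and 59.0 CPM (log2 fold change 0.45 ± 0.12, adjusted p = 0.0189).

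The other co-chaperone of BiP in the list went the opposite way. Dnajc3, which encodes p58IPK, was at 217, 256 and 159 CPM in wild type and 278, 200.1 and 187 CPM in the null-labelled libraries, lower in all 3 higher-number libraries (log2 fold change -0.54 ± 0.10, adjusted p = 0.00389). Within each range the null-labelled libraries were above wild type, and in the range-adjusted model its log2 fold change between the genotypes was 0.26 ± 0.10 (unadjusted p = 0.0270, adjusted p = 0.9996). The disulfide isomerase gene Pdia4 was at 201, 205 and 166 CPM and 217, 179 and 162 CPM. It was lower in the higher numbers without overlap (-0.32 ± 0.09, adjusted p = 0.0180). Hspa13, an Hsp70-family gene of the ER, was at 42.3, 53.0 and 37.6 CPM and 47.6, 37.3 and 34.5 CPM, also lower without overlap (-0.38 ± 0.11, adjusted p = 0.0284). Between the genotypes, with genotype alone, the log2 fold change was 0.07 for Dnajc3, -0.03 for Pdia4 and -0.15 for Hspa13.

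Several abundant folding genes varied little. Canx, the membrane-bound lectin chaperone calnexin, was at 361, 388 and 327 CPM and 380, 369 and 325 CPM. The isomerase gene Pdia6 was at 177, 197 and 155 CPM and 193, 184 and 163 CPM. Manf, whose product is secreted under ER stress, was at 78.2, 84.6 and 61.7 CPM and 84.3, 82.9 and 67.3 CPM. These 3 were lowest in wild type 3 and null-labelled 3 and were not called between the title numbers with TMM factors (adjusted p = 0.190, 0.101 and 0.0731), but were called lower with upper quartile factors, and Manf also without a filter on low counts or without null-labelled 2. Hsp90b1, which encodes the ER Hsp90 protein GRP94, ran from 404 to 533 CPM, and Calr, the soluble lectin chaperone calreticulin, from 437 to 576 CPM. Both were highest in null-labelled 2. Creld2 ran from 20.01 to 25.5 CPM and Sdf2l1, a partner of ERdj3, from 3.58 to 5.49 CPM, and neither was called in any comparison. The 8 members with an ERSE in the promoter window did not share a direction between the title numbers. In that comparison 1 was called higher (Syvn1, log2 fold change 1.16) and 1 lower (Dnajc3, -0.54), and 6 were not called. Between the genotypes their log2 fold changes ran from -0.04 (Creld2) to 0.40 (Hspa5).

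**Figure D3:**
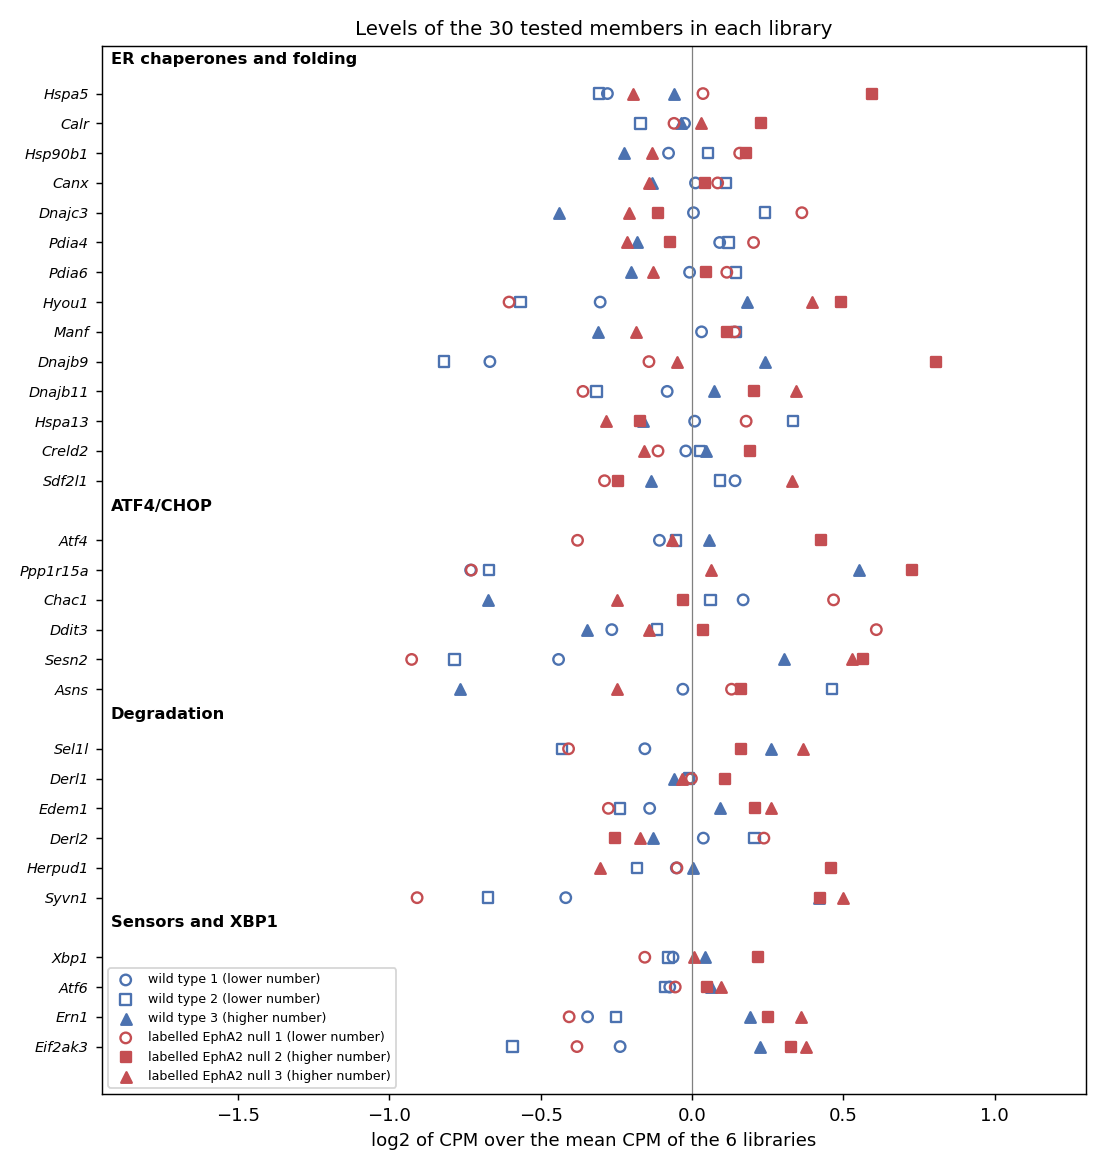
Level of the 30 tested members in each library, as log2 of CPM over the gene's mean of the 6 libraries. Blue is wild type, red is null-labelled, open symbols are lower and filled symbols higher title numbers. Null-labelled 2 (filled red square) is highest for Hspa5, Dnajb9, Atf4 and Herpud1, while Syvn1, Sesn2 and Ern1 divide by title number.

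In the ATF4/CHOP arm all 6 tested members had a log2 fold change above 0 between the genotypes, and none was called. In the range-adjusted model 3 of the 6 were above 0. Atf4 itself (ENSMUSG00000042406, chromosome 15, 80255184 to 80257541) was at 454, 472 and 508 CPM in wild type and 376, 658 and 467 CPM in the null-labelled libraries. The highest and the lowest library were both null-labelled, and the log2 fold change was 0.07 ± 0.21 with genotype alone and -0.08 ± 0.16 in the range-adjusted model. By title number it was 0.36 ± 0.16 (adjusted p = 0.0971), called only with no filter on low counts or without null-labelled 3.

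Ddit3 (ENSMUSG00000025408, chromosome 10, 127290774 to 127296288), which encodes CHOP, a transcription factor of prolonged stress, was at 11.3, 12.5 and 10.7 CPM in wild type and 20.7, 13.9 and 12.3 CPM in the null-labelled libraries. Null-labelled 1 was far above the rest, and the groups overlapped only through wild type 2 and null-labelled 3. Its log2 fold change was 0.44 ± 0.22 with genotype alone (adjusted p = 0.9996) and 0.56 ± 0.15 in the range-adjusted model (unadjusted p = 0.00503, adjusted p = 0.911). By title number Ddit3 was called lower by a narrow margin (-0.43 ± 0.15, adjusted p = 0.0456). DESeq2 did not call it (adjusted p = 0.0615), nor did edgeR without wild type 2 (log2 fold change -0.45), null-labelled 1 (-0.16), null-labelled 2 (-0.43) or null-labelled 3 (-0.36). Without null-labelled 1 the difference between the genotypes was 0.19. Exons of Ddit3 share 68 bases with Mars on the opposite strand and 105 bases with a second gene model of the same name, so its counts depend on how shared reads were assigned.

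Chac1 (ENSMUSG00000027313, chromosome 2, 119351229 to 119354381), a target of ATF4 whose product breaks down glutathione, was the member with the smallest p between the genotypes once the title number was in the model. It stood at 84.4, 78.2 and 47.0 CPM in wild type and 104, 73.6 and 63.2 CPM in the null-labelled libraries. Within the lower numbers null-labelled 1 was above both wild type libraries, by 0.35 on the log2 scale. Within the higher numbers null-labelled 2 and 3 were both above wild type 3, by 0.54 on average. In the range-adjusted model the log2 fold change was 0.44 ± 0.10 (unadjusted p = 0.00219), which did not pass over all genes (adjusted p = 0.805 in edgeR, 0.162 in DESeq2 and 0.887 in limma voom). With genotype alone it was 0.20 ± 0.27, and -0.03 without wild type 3 or without null-labelled 1. By title number Chac1 was lower in all 3 higher-number libraries, 61.3 ± 13.4 against 88.8 ± 13.3 CPM (SD, n = 3 each), a 1.62-fold difference (adjusted p = 0.00242).

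Another pair of genes of the arm, Ppp1r15a and Sesn2, was higher in the higher title numbers. Ppp1r15a (ENSMUSG00000040435, chromosome 7, 45522916 to 45526268) encodes GADD34, which directs a phosphatase to eIF2 and so ends the response. It was at 89.3, 93.1 and 217 CPM in wild type and 89.4, 245 and 155 CPM in the null-labelled libraries. The 3 lower-number libraries lay close together and all higher-number libraries were above them, a 2.31-fold difference (log2 fold change 1.21 ± 0.16, adjusted p = 0.00204). Sesn2, a stress-induced regulator of the nutrient kinase mTORC1, was at 9.30, 7.34 and 15.6 CPM and 6.65, 18.7 and 18.2 CPM. It too separated the title numbers, with a 2.27-fold difference (1.18 ± 0.17, adjusted p = 0.00239). Between the genotypes Sesn2 had a log2 fold change of 0.44 ± 0.44 with genotype alone and -0.03 ± 0.17 in the range-adjusted model, and Ppp1r15a 0.29 ± 0.46 and -0.07 ± 0.16. Asns ran from 2.63 CPM in wild type 3 to 6.17 CPM in wild type 2 and was not called in any comparison (log2 fold change -0.54 ± 0.27 by title number, adjusted p = 0.138).

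Of the 6 degradation genes, 5 had a log2 fold change above 0 between the genotypes with genotype alone and 4 in the range-adjusted model, and none was called. Syvn1 (ENSMUSG00000024807, chromosome 19, 6046576 to 6053712) encodes HRD1, the ubiquitin ligase at the centre of ER-associated degradation. It was at 28.7, 24.0 and 51.3 CPM in wild type and 20.4, 51.5 and 54.2 CPM in the null-labelled libraries. The 3 higher-number libraries were close together and about level across genotypes, at 52.3 ± 1.63 against 24.4 ± 4.16 CPM in the lower numbers (SD, n = 3 each), a 2.24-fold difference (adjusted p = 0.00174). The genotype log2 fold change was 0.28 ± 0.42 with genotype alone and -0.16 ± 0.13 in the range-adjusted model. Exons of Syvn1 share 91 bases with Mrpl49 on the opposite strand, which was lower in the higher numbers (log2 fold change -0.35, adjusted p = 0.0209).

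Sel1l, the adaptor that holds HRD1 in its complex, was also higher in the higher title numbers, by less. It was at 93.7, 77.5 and 125 CPM and 78.7, 117 and 135 CPM, higher in all higher-number libraries (0.61 ± 0.11, adjusted p = 0.00402). Between the genotypes it was 0.16 ± 0.25 with genotype alone and -0.06 ± 0.11 in the range-adjusted model. Edem1, a lectin that delivers misfolded glycoproteins to the complex, was at 50.3, 47.0 and 59.0 CPM and 45.7, 64.0 and 66.3 CPM (0.40 ± 0.10, adjusted p = 0.0121). Derl2, a derlin of the ER membrane, moved in the opposite direction, at 53.3, 59.9 and 47.4 CPM and 61.2, 43.6 and 46.1 CPM (-0.35 ± 0.10, adjusted p = 0.0199). Its exons share 231 bases with Mis12 on the opposite strand, which was also lower in the higher numbers (-0.33, adjusted p = 0.0455). Derl1, the other derlin, was nearly level, between 91.8 and 103 CPM in the 6 libraries. Herpud1, an ER membrane protein that recruits the complex and is a strong target of ER stress, was at 46.2, 42.2 and 48.0 CPM in wild type and 46.3, 65.8 and 38.8 CPM in the null-labelled libraries. The highest library was null-labelled 2 and the lowest null-labelled 3, which share a title number, and Herpud1 was not called by genotype (0.15 ± 0.21) or by title number (0.15 ± 0.19, adjusted p = 0.543).

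Among the sensors all 4 had a log2 fold change above 0 between the genotypes, from 0.06 to 0.31, and none was called. In the range-adjusted model the 4 values lay between -0.01 and 0.08. Ern1, which encodes IRE1, was at 23.3, 24.9 and 33.8 CPM in wild type and 22.3, 35.2 and 38.0 CPM in the null-labelled libraries. Eif2ak3, which encodes PERK, was at 23.5, 18.3 and 32.3 CPM and 21.3, 34.7 and 35.9 CPM. Both were higher in all higher-number libraries, by 0.60 ± 0.11 (adjusted p = 0.00400) and 0.68 ± 0.12 (adjusted p = 0.00424). Atf6 was at 86.0, 85.2 and 94.5 CPM and 87.1, 93.6 and 96.7 CPM. Xbp1 (ENSMUSG00000020484, chromosome 11, 5520659 to 5525893) was at 113, 112 and 122 CPM and 106, 138 and 119 CPM. In both genes every higher-number library was above every lower-number one, but the differences were small and not called (Atf6 0.13 ± 0.08, adjusted p = 0.200, and Xbp1 0.19 ± 0.10, adjusted p = 0.130).

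Null-labelled 2 was the highest library for 12 of the 30 tested members, or 40.0%, and the highest for 15.7% of all tested genes. Its members' median deviation from the gene means was 0.20 on the log2 scale, while the other 5 libraries were at or below 0, down to -0.08. By arm the deviation in null-labelled 2 and in null-labelled 3, which shares its title number, was 0.33 and -0.08 for ATF4/CHOP, 0.16 and -0.13 for the chaperones, 0.21 and 0.12 for degradation, and 0.25 and 0.24 for the sensors. Null-labelled 2 was also at 0.43 for the immediate early genes, 0.31 for the cytosolic heat shock genes and 0.18 for the corneal markers. These values were not all particular to it. Wild type 3 and null-labelled 3 were at 0.47 and 0.16 for the immediate early genes and 0.10 and 0.12 for the corneal markers. For the heat shock genes they were at 0.08 and -0.08. Without null-labelled 2 the median log2 fold change of the members between the genotypes was 0.06, and that of Hspa5 fell to 0.14 and of Herpud1 to -0.09.

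Within the title number ranges the genotype difference was computed from log2 CPM, with 1 null-labelled against 2 wild type libraries in the lower numbers and 2 against 1 in the higher. In the lower numbers 17 of the 30 members were above 0, with a median of 0.02, and in the higher numbers 26 were, with a median of 0.13. In 15 members, or 50%, the difference was above 0 in both, against 25.7% of all tested genes. It was below 0 in both in 2 (Creld2 and Ppp1r15a) and opposite in 13. The largest differences above 0 in both ranges were those of Ddit3 (0.79 and 0.29), Dnajb9 (0.60 and 0.14), Chac1 (0.35 and 0.54) and Hspa5 (0.33 and 0.26). Asns (-0.08 and 0.70), Sdf2l1 (-0.40 and 0.17), Sesn2 (-0.31 and 0.24) and Syvn1 (-0.36 and 0.04) were opposite. The interaction of genotype and title number range was called for 0 members in edgeR and 0 in DESeq2, also at an unadjusted p under 0.05. Of all genes, 0% were called in edgeR (3.43% higher and 1.28% lower unadjusted) and 0.0109% higher and 0.00544% lower in DESeq2. With 2 residual degrees of freedom this does not show that the differences are equal.

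**Figure D4:**
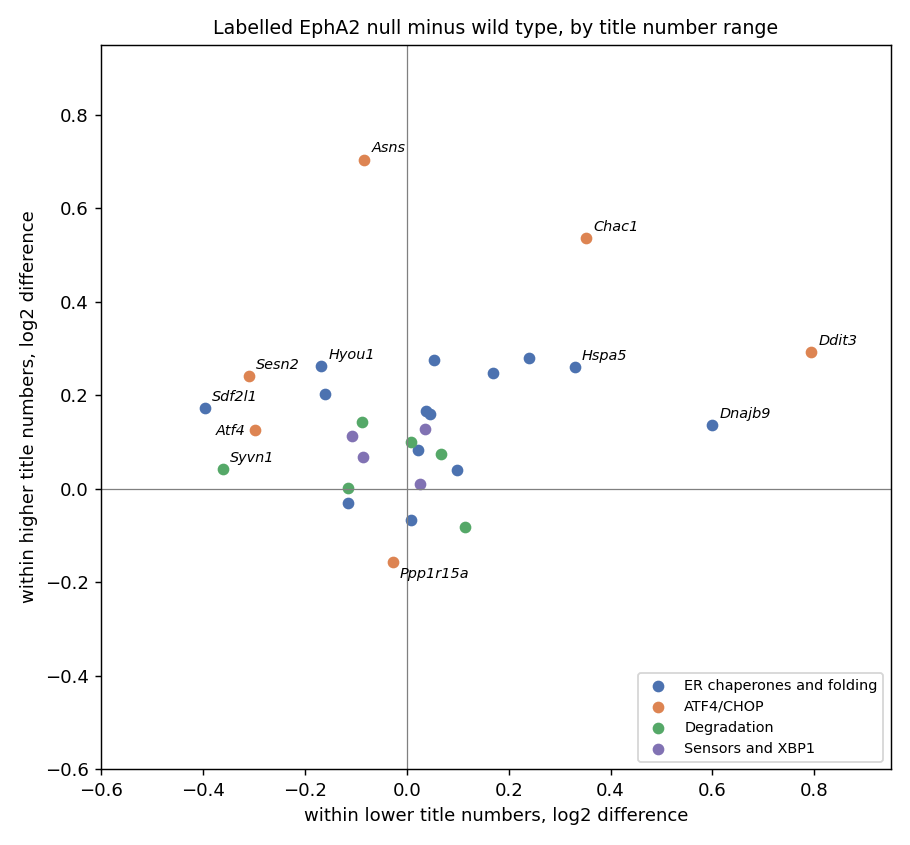
Log2 difference of null-labelled minus wild type libraries for the 30 tested members, within the lower (x axis) and the higher title numbers (y axis). Members in the upper right, 15 in all, were above 0 in both, with Ddit3, Dnajb9, Chac1 and Hspa5 farthest out.

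Other genes of the same pathways were read from lists by role. Between the genotypes 0 genes of any of these lists were called in edgeR, and each gene named had an adjusted p of 0.9996 in edgeR. The 21 tested genes of other ER folding factors had a median log2 fold change of 0.08, 13 of them above 0, with Dnajc10, a reductase of the ER, at -0.37 ± 0.21 and Pdia5 at -0.73 ± 0.42. Pdia5 was near the floor, with 5 to 14 counts in a library and 61 in all. A list of 20 genes for the translocon, through which proteins enter the ER, for targeting to it and for signal peptide removal followed. It also held Sec23b and Sec24d, which act in ER exit. Its median was -0.02, with Sec61a1, the translocon pore, at 0.17 ± 0.13 and Srp54a, a targeting gene, at -0.46 ± 0.33. For 20 other degradation genes the median was 0.06, with the lectin gene Os9 at 0.20 ± 0.15 and Edem2 at 0.24 ± 0.25. The 26 tested further targets of ATF4 had a median of 0.07, with Mthfd2 and Pck2, both mitochondrial enzyme genes, at 0.30 ± 0.22 and 0.26 ± 0.19. The 12 genes of eIF2, its exchange factor and its other kinases had a median of 0.01, with Eif2b5 at 0.16 ± 0.14 and Eif2b1 at -0.11 ± 0.21. For the 8 tested genes of other ER stress transducers it was 0.10, with Wfs1 at 0.25 ± 0.30 and Creb3l2 at 0.24 ± 0.27.

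Between the title numbers these lists moved in both directions, as the members did. Called higher and lower were 5 and 4 of the ER folding factors, 8 and 4 of the degradation genes, 9 and 3 of the ATF4 targets and 4 and 2 of the stress transducers. The list of the translocon, targeting and signal peptide removal was the one with calls in 1 direction, 0 higher and 11 of 20 lower. Its median was -0.32. Of the eIF2 genes 2 were higher and 6 lower. These shares stand beside 24.6% higher and 20.1% lower over all tested genes. The 2 higher eIF2 genes were the kinase gene Eif2ak4, which senses amino acid shortage (log2 fold change 0.80, adjusted p = 0.00228), and Ppp1r15b, the constitutive counterpart of Ppp1r15a (0.87, adjusted p = 0.00198), both named after their values were seen.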

How the data were processed

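RNA from corneal epithelium was read from 1 deposited table of raw counts, whole numbers per Ensembl gene for 6 libraries, 3 per genotype per the labels. The sources used here do not give the aligner, counting program, strand setting or genome build behind the deposited counts. Columns were assigned by title. Symbols, positions and exon lengths came from GENCODE M21 on GRCm38, which held 24991 of 25006 identifiers, and promoter sequences from RefSeq (GRCm38.p6). Without a known strand setting, reads of overlapping genes cannot be told apart, and genes with processed copies are uncertain. Besides Ddit3, Syvn1 and Derl2, exons of Eif2ak3 (485 bases), Hsp90b1 (415) and Manf (166) overlapped a gene model on the opposite strand. Shorter overlaps were found for Dnajb9, Pdia4, Pdia6 and Ppp1r15a. Every pair of libraries differed by more than sampling noise (lowest chi-square over its degrees of freedom 11.2), and each counted as a sample.

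Counts were TMM-normalised, filtered with filterByExpr (12847 genes) and tested with edgeR 4.0.16 (glmQLFit, glmQLFTest) in R 4.3.3, with Benjamini-Hochberg adjustment over all tested genes at 0.05. Genotype was the only term, and title number range was tested with genotype as a term. SE is the log2 fold change divided by the square root of F. Adjusted p-values are edgeR's unless another tool is named. DESeq2 1.42.0 and limma voom 3.58.1 were alternatives, besides other factors and filters, each library left out, and libraries that share genotype and title number summed. Within-range differences used log2 CPM with a prior count of 2.

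The test was tried on simulated counts. For genotype (12722 genes, 6 false calls) it found 0% of changes of 1.5-fold, 38% of 2-fold and 92% of 4-fold, and for title number range (12741 genes, 18 false calls) 46%, 88% and 96%. Differences between genotypes of 2-fold or less could therefore be missed.

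The members, lists, comparisons and title number ranges were chosen with earlier results of these data known. Values in every library are given for Hspa5, Ddit3, Atf4, Xbp1 and Chac1, for the 3 members per arm with the smallest p in either comparison, and for members called under any alternative. Of other lists, called genes or the 2 with the smallest p between genotypes are named. A planned count of ER retrieval signals in proteins was not run because protein sequences were not used here.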

Additional observations from a re-analysis of the deposited data

How the results depend on the processing

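Under each alternative run, 0 members were called between the genotypes, and the members' median log2 fold change stayed above 0, from 0.05 with libraries that share a title number summed to 0.17 without null-labelled 1. The number of genes called over all tested genes was 1 in edgeR, 5 in DESeq2, 17 in range-adjusted DESeq2 and 0 with libraries summed. The range-adjusted model turned Atf4 (-0.076 in edgeR, -0.075 in DESeq2), Xbp1 (-0.0069 and -0.0057), Sesn2 (-0.025 and -0.027) and Syvn1 (-0.16 in both) below 0, as it did Ppp1r15a (-0.074) and Sel1l (-0.058) in edgeR, and Canx, Pdia4 and Derl2 above 0, none of them called, and summing did so for Atf4 (-0.079), Xbp1 (-0.020) and Syvn1 (-0.089). Leaving out 1 library, the log2 fold change ran from -0.18 to 0.23 for Atf4, from -0.034 to 0.36 for Chac1, from -0.095 to 0.30 for Herpud1 and from -0.040 to 0.15 for Xbp1. That of Epha2 ran from 0.22 to 0.86. Between the title numbers, leaving out 1 library gave 1103 (without null-labelled 1) to 5803 (without null-labelled 2) called genes against 5740, with 3549 without wild type 2 and 3702 without wild type 3, and 5 to 17 called members against 16. Upper quartile factors gave a members' median of 0.0071, with 2480 genes called higher and 3797 lower in place of 3154 and 2586. The cause was not tested. No paired analysis was made because the labels give no pairing of libraries and no meaning for the letters in the titles. Trib3, at 21 counts, was too shallow to compare.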

Other observations

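The cytosolic heat shock genes, chaperones of the cytosol and mitochondria under the factor HSF1, were read as a list outside the ER. Between the genotypes 12 of the 13 had a log2 fold change above 0, against 53.1% of all tested genes. Their median was 0.28 beside 0.01 over all tested genes, and 0 were called by edgeR (0 at an unadjusted p under 0.05). By library, the median deviation from the gene means was -0.04, -0.31 and 0.08 in wild type 1, 2 and 3. It was 0.11, 0.31 and -0.08 in null-labelled 1, 2 and 3. Within the title number ranges the median genotype difference of these genes was 0.29 in the lower and 0.07 in the higher numbers. In the range-adjusted model their median was 0.22, with 11 above 0. Hsph1, an Hsp110 co-chaperone, was at 46.1, 36.8 and 61.7 CPM in wild type 1, 2 and 3 and at 55.9, 79.5 and 58.5 CPM in null-labelled 1, 2 and 3 (0.42 ± 0.23, SE). Dnaja1, an Hsp40 co-chaperone, was at 46.0, 35.9 and 39.7 CPM and 54.0, 53.5 and 42.0 CPM (0.30 ± 0.17). The groups overlapped in both genes. Between the title numbers 5 of the 13 were higher and 2 lower, beside 24.6% and 20.1% of all tested genes. Bag3 had the largest rise (1.08, adjusted p = 0.00175 in edgeR), and the lower ones were Hsp90aa1 (-0.74, adjusted p = 0.00997) and Hspe1 (-0.78, adjusted p = 0.00470), these 3 named after their values were seen.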
